A study of Mus musculus with 5 samples.

Results

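The Rnf genes encode ring finger proteins, most of them ubiquitin ligases, and the occupancy of these genes by ZFP541 was examined in mouse spermatocytes. All RefSeq protein-coding genes of mm10 whose symbol is Rnf followed by a number and at most 1 letter were taken, without Rnf8, Rnf17 and Rnf212. This left 77 genes of 21779 protein-coding genes placed on the nuclear chromosomes. ZFP541 had been mapped by ChIP-seq, the sequencing of DNA that an antibody pulls down from fixed chromatin, in pachytene and diplotene spermatocytes of adult C57BL/6 testes enriched by STA-PUT sedimentation. The peak lists used came from 1 ChIP library of Zfp541-/- cells and 2 ChIP libraries of wild-type cells, all made with a rabbit antibody to the N-terminal part of ZFP541. Of the 5 samples, the other 2 were wild-type inputs, which were not analysed here. The labels do not say how the Zfp541 allele was made or whether the wild-type replicates came from separate animals, and with no RNA data the cell type could not be checked against its markers.

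A ring finger is a small zinc-binding fold that holds a ubiquitin-loaded E2 enzyme close to a substrate, so that ubiquitin passes from the E2 to the substrate. Ring finger proteins act on histones, DNA repair factors, membrane receptors and misfolded proteins, and in RING-between-RING (RBR) proteins ubiquitin is first moved onto the ligase itself. In male meiosis, ubiquitin marks on histones accompany DNA repair and the silencing of unpaired chromatin. ZFP541 is a zinc finger protein of spermatocytes and spermatids that associates with KCTD19 and histone deacetylases.

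The knockout list held 256 peaks, against 8236 and 10371 in wild-type replicates 1 and 2. The lowest −log10 p was 4.47 in the knockout list, and 2.71 and 2.54 in the lists of wild-type replicates 1 and 2. The wild-type lists thus reach weaker peaks, and these counts are not like for like. At Zfp541 itself the knockout library had no peak, against highest fold enrichments of 18.6 and 22.2 in the wild-type replicates, and whether the deletion covers that site is not given. Fold enrichment is the authors' value for each peak, a ratio over the background of their peak caller. The lists carry no read depth, and the absence of a peak therefore does not show an unbound site. With 1 knockout library and 2 wild-type libraries, no test was run, and values are given for each library.

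The promoters shown here range from rich to poor in CG dinucleotides. Each runs from 250 bases before to 50 bases after the most upstream annotated start, 5′ to 3′ on the gene's strand, from the RefSeq promoter table of GRCm38.p6, and every CG dinucleotide is in capitals. Rnf130 had the highest rank of fold, Rnf145 and Rnf212b held the replicate 1 summit in this window, and Rnf168 was added after its values were seen because its promoter is poor in G and C. Rnf40 and Rnf133, also picked after their values were seen, had no peak in any library.
Rnf130 (chr11:50025081-50025380, plus strand): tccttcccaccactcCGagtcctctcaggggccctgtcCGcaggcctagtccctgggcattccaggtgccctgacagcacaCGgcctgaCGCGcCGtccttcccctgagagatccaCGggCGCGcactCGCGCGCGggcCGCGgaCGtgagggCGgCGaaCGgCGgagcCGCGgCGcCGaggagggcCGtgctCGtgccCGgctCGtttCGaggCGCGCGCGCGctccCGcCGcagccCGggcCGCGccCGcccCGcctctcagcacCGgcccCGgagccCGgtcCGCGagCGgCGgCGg
Rnf168 (chr16:32277211-32277510, plus strand): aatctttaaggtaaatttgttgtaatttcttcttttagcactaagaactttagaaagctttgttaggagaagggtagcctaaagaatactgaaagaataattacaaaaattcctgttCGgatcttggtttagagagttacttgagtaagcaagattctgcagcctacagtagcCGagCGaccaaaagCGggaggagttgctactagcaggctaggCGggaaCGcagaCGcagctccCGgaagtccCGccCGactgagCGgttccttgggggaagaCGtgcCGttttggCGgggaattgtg
Rnf145 (chr11:44518706-44519005, plus strand): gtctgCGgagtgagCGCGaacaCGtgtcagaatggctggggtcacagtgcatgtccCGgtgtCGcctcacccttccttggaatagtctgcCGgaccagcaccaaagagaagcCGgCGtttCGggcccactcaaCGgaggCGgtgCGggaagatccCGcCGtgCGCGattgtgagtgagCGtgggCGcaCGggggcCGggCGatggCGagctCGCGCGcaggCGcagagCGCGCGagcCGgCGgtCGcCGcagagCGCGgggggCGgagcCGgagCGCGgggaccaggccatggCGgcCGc
Rnf212b (chr14:54813900-54814199, plus strand): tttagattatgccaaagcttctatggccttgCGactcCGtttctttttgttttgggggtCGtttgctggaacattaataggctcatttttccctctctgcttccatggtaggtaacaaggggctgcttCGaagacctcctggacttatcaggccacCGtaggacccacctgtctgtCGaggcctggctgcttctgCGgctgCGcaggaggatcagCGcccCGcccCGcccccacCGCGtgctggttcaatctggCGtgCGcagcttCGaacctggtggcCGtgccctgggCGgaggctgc
Rnf40 (chr7:127588448-127588747, plus strand): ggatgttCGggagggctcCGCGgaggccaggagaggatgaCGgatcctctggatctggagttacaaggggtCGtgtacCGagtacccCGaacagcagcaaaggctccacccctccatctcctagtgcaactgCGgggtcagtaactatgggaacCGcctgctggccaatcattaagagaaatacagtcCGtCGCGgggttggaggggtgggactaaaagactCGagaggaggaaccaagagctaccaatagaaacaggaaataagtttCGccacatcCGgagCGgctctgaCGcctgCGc
Rnf133 (chr6:23650256-23650555, minus strand): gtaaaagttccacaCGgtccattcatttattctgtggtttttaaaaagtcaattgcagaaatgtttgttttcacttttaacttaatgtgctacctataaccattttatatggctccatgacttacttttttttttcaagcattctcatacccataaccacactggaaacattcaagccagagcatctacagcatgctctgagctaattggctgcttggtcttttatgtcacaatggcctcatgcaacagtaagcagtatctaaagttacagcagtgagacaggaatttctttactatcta
The Rnf130 sequence holds 49 CG dinucleotides and the Rnf145 sequence 42, against 18 each in Rnf212b and Rnf40, 14 in Rnf168 and 1 in Rnf133. All 300 bases of the Rnf130, Rnf168 and Rnf145 windows lay inside a ZFP541 region, as did 153 bases of the Rnf212b window. In Rnf130 the summit fell on base 263 in replicate 1 and base 106 in replicate 2, and the replicate 1 summits of Rnf145 and Rnf212b fell on bases 46 and 288.

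No Rnf gene had a peak in the knockout library anywhere in the gene body or within 1 kb of its ends. Among all protein-coding genes, 0.22% had such a knockout peak, so a count of 0 of 77 is near the background of that short list. In the wild-type libraries 38 Rnf genes (49.4%) had a peak in replicate 1 and 43 (55.8%) in replicate 2, where 27.8% and 32.6% of all protein-coding genes had one. Of all peaks in these lists, 19.2% in replicate 1 and 22.6% in replicate 2 had a q-value above 0.05. The peaks of Rnf34, Rnf152, Rnf139, Rnf144b and Rnf213 named below were among these, with −log10 q values from 0.13 to 1.01. The knockout peak nearest to an Rnf gene lay 39542 bp from Rnf6.

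Overlapping wild-type peaks of both replicates with no knockout peak were joined and are called ZFP541 regions here. A region lay within 1 kb of an end of 26 Rnf genes (33.8%), where 21% of all protein-coding genes had one. With the gene body included the count was 34 Rnf genes (44.2%), against 23.9% of all protein-coding genes. Rnf genes had a median length of 24883 bp, against 17217 bp for all protein-coding genes, and the part of length in the body count was not tested. Of the remaining Rnf genes, 2 had peaks in both replicates that did not overlap, 2 had peaks in replicate 1 only, 7 in replicate 2 only, and 32 had none.

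These shares depended on the peak threshold. With peaks of a −log10 q of at least 5, 17 Rnf genes (22.1%) had a region at an end, where 11.8% of all protein-coding genes did, and with a −log10 q of at least 10 the count was 10 (13%), where 6.78% of all did. In the body or flank the counts were 20 and 12 Rnf genes, beside 13.7% and 7.89% of all protein-coding genes, and at a start 16 and 9, beside 12.1% and 6.85%. Peaks with a q-value of at most 0.05 gave 25 Rnf genes at an end (18.8% of all genes), as did the lowest −log10 p of the knockout list taken as the minimum (18.4% of all). A reciprocal overlap of at least 50% gave 22 (15.3% of all), and a replicate 1 summit inside the replicate 2 peak gave 26 (19.9% of all). Flanks of 500 bp and 2 kb gave 26 (19.8% of all) and 27 (22.4% of all). Without replicate 1 the counts were 32 at an end (27.8% of all), 43 in the body or flank (32.6% of all) and 30 at a start (28.6% of all). Without replicate 2 they were 27 (23.7% of all), 38 (27.8% of all) and 27 (24.5% of all).

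**Figure D1:**
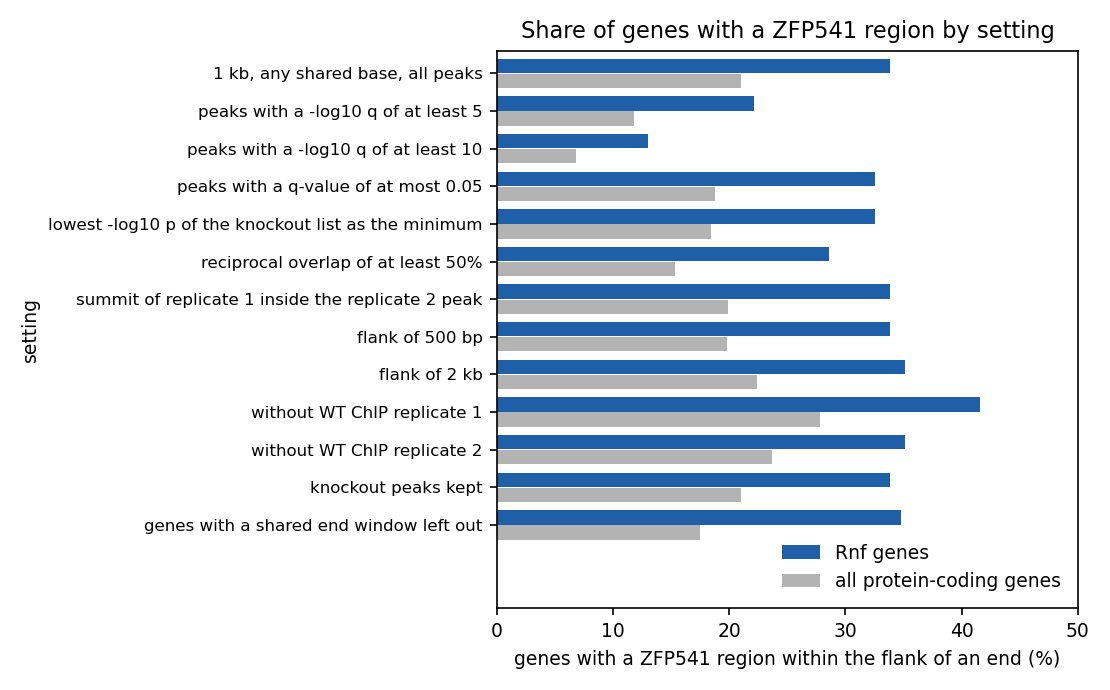
Share of Rnf genes (blue) and of all protein-coding genes (grey), in percent, with a ZFP541 region at a gene end, for the main setting and each alternative down the page. The blue bar is the longer one at each setting, with 33.8% against 21% at the top and 13% against 6.78% at a −log10 q of at least 10.

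Folds at the 26 genes with a region at an end ranged from 3.21 to 19.3 in replicate 1 and from 2.38 to 15.1 in replicate 2. Their medians were 5.97 and 7.89, against 5.71 and 6.38 for the 4573 protein-coding genes with a region at an end. The folds of 18 of the 26 genes were within 1.5 times of each other between replicates, and the widest ratio was 2.23, at Rnf146. Replicate 2 gave the higher fold at 18 genes and replicate 1 at 8. When the 4573 genes were ordered by mean percentile rank of fold over the replicates, 5 of the 26 fell in the top 10%: Rnf130, Rnf168, Rnf169, Rnf149 and Rnf144a.

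**Figure D2:**
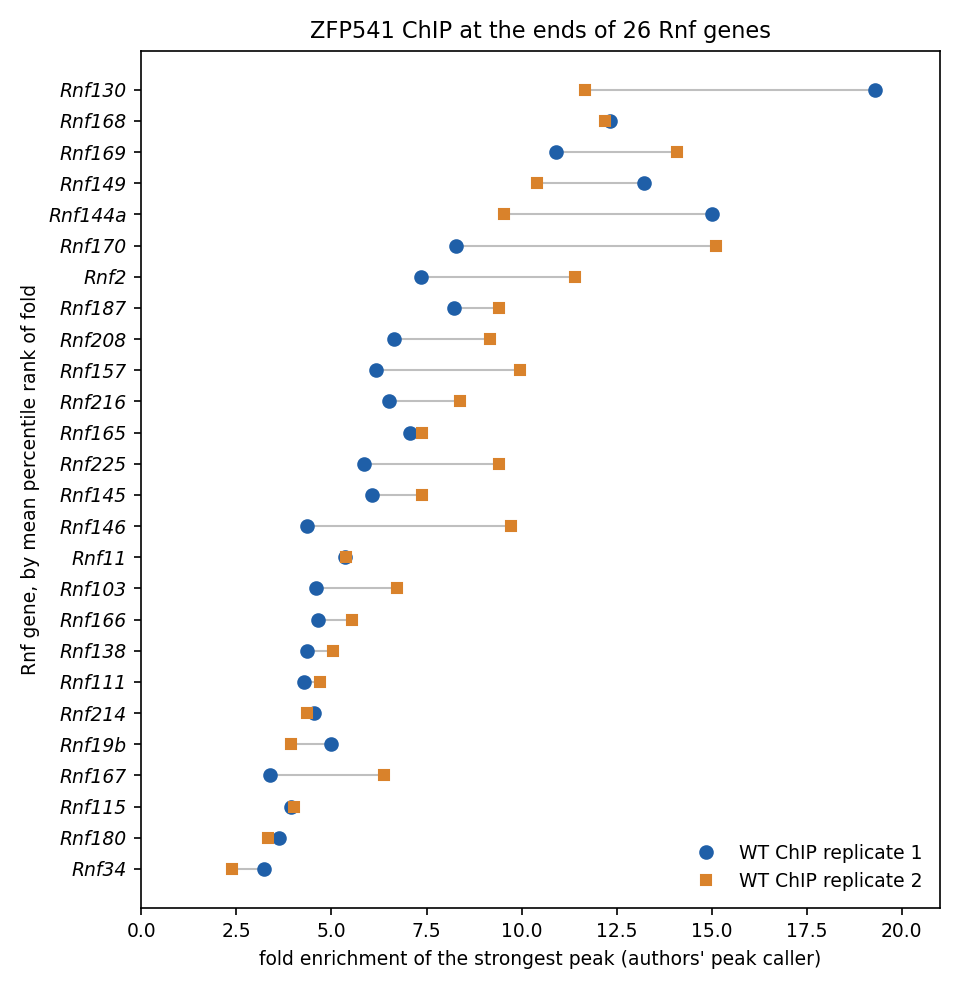
Fold enrichment of the strongest peak at an end of each of the 26 Rnf genes, in wild-type replicate 1 (circles) and replicate 2 (squares), with a grey line between them and the genes in order of mean percentile rank. Folds run from 19.3 and 11.7 at Rnf130 down to 3.21 and 2.38 at Rnf34, and the knockout library has no peak to plot.

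Rnf genes of chromatin and DNA repair had a region at an end in 5 of 8 cases (62.5%, where all protein-coding genes had 21% and all Rnf genes 33.8%). This and the other role lists are short, and they were chosen with earlier results of these data known. Rnf168 encodes the ligase that ubiquitinates histone H2A at DNA breaks after RNF8, and its folds were 12.3 in replicate 1 and 12.2 in replicate 2 (chromosome 16, 32276894 to 32278083). Rnf169, whose product binds the ubiquitin marks made by RNF168 and limits repair factor recruitment there, had 10.9 and 14.1 (chromosome 7, 99979560 to 99981198). Rnf2 encodes RING1B, the subunit of Polycomb repressive complex 1 that ubiquitinates H2A, and had 7.36 and 11.4 (chromosome 1, 151499817 to 151501387). At each of these 3 genes the region covered the annotated start, and the folds of Rnf168 were nearly equal between the libraries while replicate 2 was higher at Rnf169 and Rnf2. Rnf138, which acts in the resection of broken DNA ends, had 4.35 and 5.04, and Rnf111, a SUMO-targeted ligase also known as Arkadia, had 4.29 and 4.70. Neither Rnf138 nor Rnf111 had a region at a −log10 q of at least 5 or under a reciprocal overlap of at least 50%. The other members, Rnf20 and Rnf40, which encode the heterodimer that ubiquitinates histone H2B, and Rnf4, a SUMO-targeted ligase gene, had no peak in any library.

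Among 9 genes of transmembrane ligases with a protease-associated domain, which sit in endosomal and other membranes, 3 had a region at an end (33.3%, where all protein-coding genes had 21%). Rnf130 had folds of 19.3 and 11.7 in a region of 2536 bp, the widest of the strongest end regions of the 26 genes (chromosome 11, 50024384 to 50026919). Rnf149 had 13.2 and 10.4 (chromosome 1, 39576013 to 39577885). Replicate 1 was the higher library at both. Rnf167, a ligase of endosomes and lysosomes, had 3.38 and 6.38 in a region that also reached an end of Slc25a11, whose nearest end was 543 bp from the summit against 242 bp for Rnf167. Rnf43, which removes Wnt receptors from the cell surface, had 1 peak of fold 3.36 in replicate 2, inside the gene. Rnf13, Rnf128, Rnf133 and Rnf148 had no peak, and Rnf150 had a fold of 3.69 inside the gene in replicate 2 only.

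The RBR genes had a region at an end in 3 of 8 cases (37.5%, where all protein-coding genes had 21%). Rnf144a had folds of 15.0 and 9.54 (chromosome 12, 26413959 to 26415724). Rnf216, also known as Triad3, had 6.50 and 8.39 (chromosome 5, 143111594 to 143113044), and Rnf19b had 5.0 and 3.92. Rnf144a and Rnf216 kept a region under each alternative of threshold, overlap, flank and library, and Rnf19b lost it when a reciprocal overlap of 50% or a −log10 q of 5 was asked. Rnf14, a cofactor gene of the androgen receptor, had a region only inside the gene, with 3.93 and 4.03. Rnf19a had peaks of 4.23 at an end and 4.03 inside the gene in replicate 2 and none in replicate 1, while Rnf144b had 3.08 in replicate 1 alone. Rnf217 and Rnf31, which encodes the catalytic subunit of the linear ubiquitin chain assembly complex, had no peak.

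Genes of ligases in the endoplasmic reticulum and other organelle membranes had a region at an end in 4 of 15 cases (26.7%), a share close to the 21% of all protein-coding genes. Rnf170, which acts in the turnover of inositol trisphosphate receptors, had 8.28 and 15.1 (chromosome 8, 26118625 to 26120258), with a summit 56 bp from its end and 194 bp from that of Hook3. Rnf145, a ligase of sterol metabolism, had 6.07 and 7.38 (chromosome 11, 44518241 to 44519382). Replicate 2 was the higher library at both genes. Rnf103 had 4.59 and 6.71, and Rnf180 had 3.62 and 3.32. Rnf182, Rnf139 and Rnf152 had peaks in replicate 2 only, with folds of 4.36, 3.02 and 2.69, and the Rnf152 peak lay 972 bp downstream of the start. Rnf5, Rnf24, Rnf26, Rnf121, Rnf122, Rnf183, Rnf185 and Rnf186 had no peak.

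Cullin-RING and signalling members had a region at an end in 4 of 10 cases (40%, where all protein-coding genes had 21%). Rnf165, a relative of Arkadia, had 2 regions at the same end, the stronger with folds of 7.05 and 7.37 and the weaker with 3.57 and 4.02 (chromosome 18, 77564737 to 77566233 and 77563953 to 77564383). Rnf146, whose product recognises poly-ADP-ribose and directs the breakdown of axin, had 4.36 and 9.73, with a summit 607 bp from its end and 439 bp from an end of the coding gene Gm30698. Rnf11 had 5.36 and 5.37, and Rnf115 had 3.93 and 4.01 at an end it shares with Polr3c. Rnf11 was thus nearly equal between the libraries, while Rnf146 differed the most of the 26. Rnf7, which encodes the ring subunit of cullin 5 ligases, had a peak of 3.69 over its start in replicate 2 only, and Rnf6, Rnf41 and Rnf123 had none. Rnf126 and Rnf220, described below, had regions in the gene body only, and that of Rnf126 covered its annotated start.

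Members with roles in innate immunity and cell death had a region at an end in 2 of 6 cases (33.3%, where all protein-coding genes had 21%), both with low folds. Rnf166 had folds of 4.64 and 5.53, with the summit 131 bp from its own end and 137 bp from that of Ctu2. Rnf34, a ligase gene linked to caspase turnover, had 3.21 and 2.38, and its region was lost when a q-value of at most 0.05 was asked of each peak. Rnf213, a very large ligase tied in humans to moyamoya disease, had peaks of 2.86 and 3.02 that lay at different places in the gene, and Rnf135 had no peak. Rnf114 and Rnf125, described below, had regions in the gene body only, and that of Rnf114 covered an annotated start.

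None of the 5 members listed here for known expression in testis had a region or a peak in any library (Rnf32, Rnf133, Rnf141, Rnf148 and Rnf151). The list was drawn up by hand and does not cover every Rnf gene that may act in testis. Rnf212b, described below, is not on it and had a region at its annotated start. The background of 21% applies to genes at large, and 5 genes are few to set against it. Of the 18 members in none of these role lists, 5 had a region at an end, where 21% of all protein-coding genes had one. Rnf187, a coactivator of JUN, had 8.21 and 9.40 (chromosome 11, 58938071 to 58939029). Rnf208 had 6.65 and 9.16 in a region 466 bp wide that lay wholly upstream of the gene, with the summit 661 bp before the start (chromosome 2, 25242107 to 25242572). Rnf225 had 5.86 and 9.40, Rnf157 had 6.17 and 9.96, and Rnf214 had 4.55 and 4.36. The Rnf225 summit lay 862 bp downstream of the start in replicate 1 and 1088 bp in replicate 2.

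Rnf157 was the only Rnf gene with a region at both ends. The stronger one lay over its start (chromosome 11, 116412204 to 116414313). The other, with folds of 5.0 and 4.70, lay beyond its far end (chromosome 11, 116335436 to 116335972), with the summit 778 bp from Rnf157 and 68 bp from an end of Foxj1, a transcription factor gene of motile cilia. A further region, with 4.64 and 4.36, lay inside Rnf157, 1141 bp downstream of the start. In all, the strongest end regions of 7 of the 26 genes reached an end window of another protein-coding gene, and at 2 of these, Rnf146 and Rnf214, the summit was nearer to the other gene. Which gene such a region belongs to cannot be told apart from these lists. Among Rnf genes whose end windows overlap those of no other coding gene, 16 of 46 (34.8%) had a region at an end, where 17.5% of all such coding genes had one. In the body or flank 20 of these Rnf genes had a region, where 20.3% of all such genes did, and at a start 14 did, where 18.7% of all such genes did.

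The start of transcription could be placed for 62 of the 77 genes through the promoter table. Of these, 26 (41.9%) had a region within 1 kb of an annotated start, against 21.7% of 17492 protein-coding genes in the table. Of the 22 genes that have both a placed start and a region at an end, the summit lay downstream of the nearest start at 16 and upstream at 6. It ranged from 661 bp upstream to 862 bp downstream, with a median of 221.5 bp downstream, and 17 were within 500 bp. For all protein-coding genes with a region at a start the median was 96 bp downstream. There 66.1% of summits lay downstream and 86% were within 500 bp. That set was chosen at starts and not at ends, and it holds genes such as Rnf212b whose region lay at no end. The values are thus not like for like. Replicate 2 summits fell on the other side of the start at some genes, such as Rnf149, where they were 284 bp downstream in replicate 1 and 92 bp upstream in replicate 2.

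**Figure D3:**
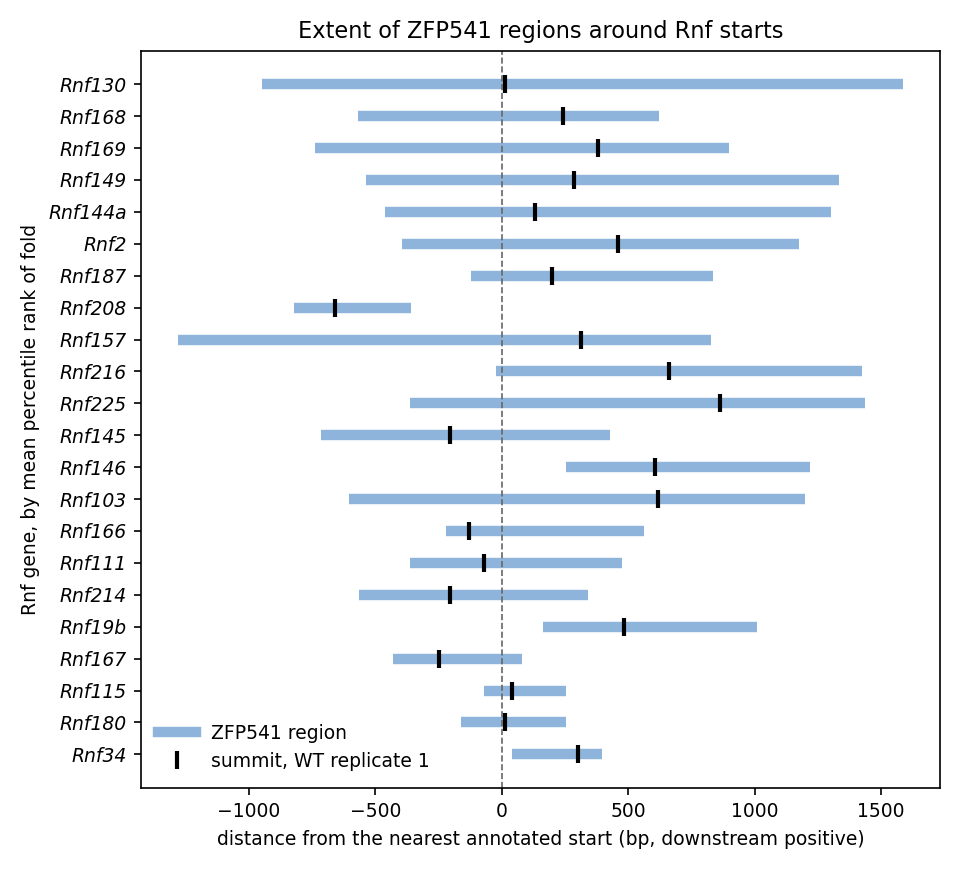
Extent of the strongest ZFP541 region at an end (bars) and its replicate 1 summit (ticks) for the 22 Rnf genes with an annotated start, as distance in bp from the nearest start, downstream to the right. Most bars cross the start, the summit of Rnf208 is the farthest upstream at 661 bp, and that of Rnf225 the farthest downstream at 862 bp.

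Of the 8 genes whose regions lay only in the gene body, 4 had the region at an annotated start inside the gene's outer bounds. Rnf212b, a paralogue of the crossover factor Rnf212, had folds of 7.09 and 5.90 with a summit 37 bp downstream of its start and 30846 bp from the nearer gene bound (chromosome 14, 54814047 to 54814934). Rnf126, a ligase of cytosolic protein quality control, had 7.14 and 5.70 at its start (chromosome 10, 79766166 to 79767027). Rnf44 had 4.29 and 5.37, and Rnf114 had 3.52 and 3.69, each at the second of 2 annotated starts. The folds of these 4 genes lay within the range of the genes with a region at an end. Among the other 4, Rnf220 had 2 regions, neither over its annotated start, one of 9.21 and 8.39 (chromosome 4, 117483904 to 117485405) and one of 3.98 and 4.70. Rnf125, a ligase of antiviral signalling, had 3.93 and 3.69, and Rnf207 had 3.93 and 3.36, beside Rnf14 above. The promoter table does not hold Rnf14, Rnf125 or Rnf207, so whether their regions lie at a start could not be told.

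Among members in none of the role lists, Rnf181 had a peak in replicate 1 only, with a fold of 3.93, 240 bp downstream of a start. The other members without a peak were Rnf10, Rnf25, Rnf39, Rnf112, Rnf215, Rnf222, Rnf223 and Rnf224. Counted from the gene, the nearest region lay 1415 bp from Rnf43, the only member just outside the 1 kb flank, and 3004 bp from Rnf10. The median distance over the 43 members without a region was 73721 bp.

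Composition and motifs were read at the most upstream start, while a region was counted at any annotated start. The Rnf114, Rnf44, Rnf214 and Rnf111 regions covered a second start and not the most upstream one. At Rnf114, Rnf44 and Rnf214 the bases read lay wholly outside the region, and so they did at Rnf146, Rnf208 and Rnf19b. Only the edge of the bases read was inside at Rnf111 and Rnf34. The composition below therefore does not describe occupied bases at every gene. At the second starts G and C content and CpG ratio were 65.7% and 0.804 for Rnf114, and 68.7% and 0.967 for Rnf44. They were 81.7% and 0.824 for Rnf214, and 80% and 0.90 for Rnf111. Promoters of Rnf genes with a region at a start were richer in G and C. Their median G and C content was 67% and their median ratio of observed to expected CpG 0.846, against 56.8% and 0.657 for Rnf genes without such a region. Over all protein-coding genes the medians were 66.3% and 0.864 with a region and 53.7% and 0.420 without. A promoter was called CpG-rich here if the ratio was at least 0.6 and G and C made up more than 50% of the 300 bases. By this measure 43 of the 62 Rnf promoters (69.4%) were CpG-rich, against 45.6% of all protein-coding promoters. Within the CpG-rich class 21 of 43 Rnf genes (48.8%) had a region at a start, where 40.9% of all such genes had one. In the other class the counts were 5 of 19 (26.3%), where 5.67% of all such genes had one.

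The 5 Rnf genes with a region within 1 kb of a start and a promoter that was not CpG-rich were Rnf168, Rnf169, Rnf146, Rnf208 and Rnf225. At Rnf146 and Rnf208 the region lay outside the 300 bases that were classed. Rnf168 and Rnf169 had CpG ratios of 0.909 and 0.838 but only 46.3% and 49.7% G and C, just under the limit, as the printed Rnf168 sequence shows. Rnf146 had 0.591 and 42.7%. Rnf208 and Rnf225 had low ratios of 0.314 and 0.252. Their summits were the farthest from the start among the strongest end regions, at 661 and 862 bp. The summit of Rnf216, whose promoter was CpG-rich, was nearly as far at 660 bp. Rnf133 and Rnf148, neighbours on chromosome 6 that are known for expression in spermatids, had the lowest G and C contents of the 62, at 36.3% and 30.7%, and no peak. Of the 36 Rnf genes without a region at a start, 22 (61.1%) had a CpG-rich promoter, among them Rnf4 (1.02 and 59%), Rnf24 (1.00 and 63.7%) and Rnf6 (1.04 and 60%), which had no peak.

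**Figure D4:**
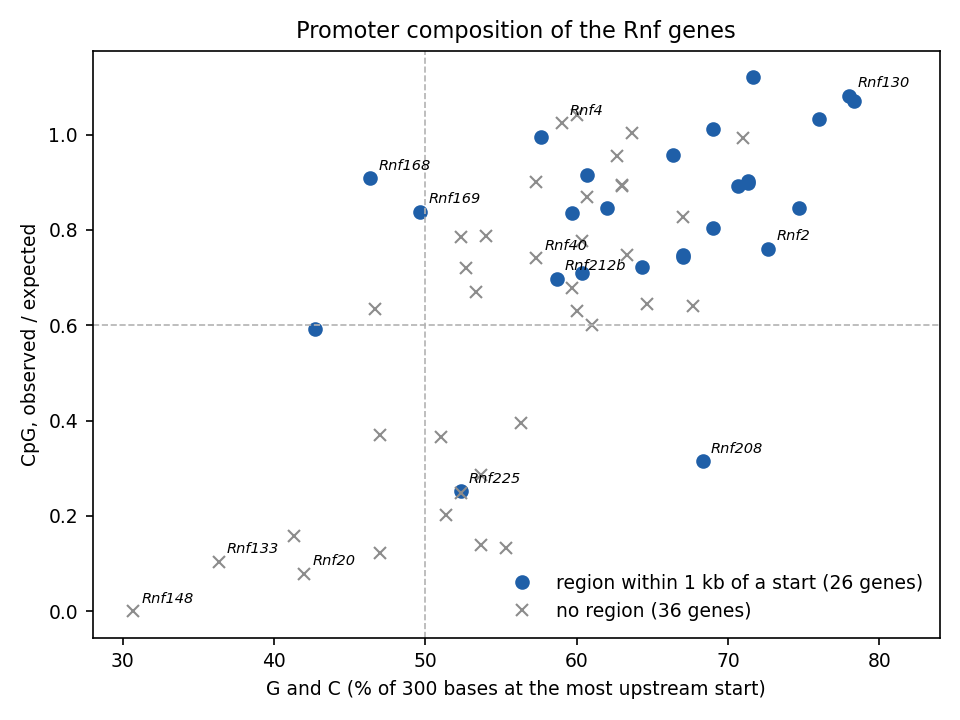
Ratio of observed to expected CpG against G and C content (%) in the 300 bases at the most upstream annotated start of 62 Rnf genes, with a region within 1 kb of a start (circles, 26 genes) and without (crosses, 36 genes). Dashed lines mark 0.6 and 50%, and 21 of the 26 circles lie in the upper right part with 22 of the 36 crosses.

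Short sequence motifs were counted on both strands of the same 300 bases. GGCGGG, the core of a GC box, was in 19 of 26 Rnf promoters with a region at a start (73.1%), 13 of 36 without (36.1%) and 45.6% of all protein-coding promoters, and it was in 74.1% of all those with a region. CCAAT was in 7 of 26 Rnf promoters with a region and 13 of 36 without, beside 36.2% of all protein-coding promoters with a region and 39.2% of all. TATAAA was in 2 of 26 and 7 of 36, beside 5.24% of all with a region and 13.3% of all. TGACG, part of a cAMP response element, was in 5 of 26 (19.2%) and 13 of 36 (36.1%), beside 33.9% of all with a region and 23.8% of all. CCGGAAG, an ETS-type motif, was in 5 of 26 and 4 of 36, beside 16.4% of all with a region and 11.9% of all. CACGTG was in 1 of 26 and 1 of 36, beside 12.4% of all with a region and 7.91% of all. GCATGCG was in 0 of 26 and 2 of 36, beside 7.43% of all with a region and 4.5% of all. AACNGTT was in 2 of 26 and 0 of 36, beside 2.24% of all with a region and 3.93% of all. These counts are small and were not tested. GGCGGG contains a CG dinucleotide, so these measures overlap, and a match is a match of letters only.

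Other genes of ubiquitin ligases and of ubiquitin were counted in the same way. Of 71 genes for ring ligases with other symbols, 38 (53.5%) had a region at an end, where all protein-coding genes had 21%. The highest ranks were those of Marchf8, a membrane ligase (11.4 and 20.1), Bmi1 and Pcgf5, Polycomb ring finger partners of RNF2 (11.8 and 13.3, and 10.8 and 13.7), and Znrf1 (10.8 and 12.8). The end windows of Marchf8, Bmi1 and Znrf1 overlap those of other coding genes. Of 26 HECT ligase genes, which carry ubiquitin on the ligase, 13 (50%) had one, led by Hecw2 (10.4 and 11.7), Smurf1 (9.56 and 11.1), Wwp1 (10.3 and 8.26) and Ube3c (8.40 and 8.73). Cullin and cullin adaptor genes had 6 of 15 (40%), led by Cul5 (11.1 and 11.1), and the ubiquitin genes had 1 of 4 (25%). At the main setting the Rnf genes, at 33.8%, were thus below the ring, HECT and cullin lists in share. The order against the cullin list changed with the threshold. At a q-value of at most 0.05 cullin genes had 4 of 15, beside 32.5% of Rnf genes and 18.8% of all. At a −log10 q of at least 10 they had 1 of 15, beside 13% of Rnf genes and 6.78% of all. Differences between the lists were not tested. Without genes that share an end window, 37 genes of these other lists had a region in place of 58, where 17.5% of 14769 coding genes had one. How many genes of the lists were left is not given, so the lower count does not show a lower share.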

How the data were processed

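Peak lists of 3 ChIP libraries were used. The submitters' processing notes name mm10 as the build and, as tools, MACS2 2.2.6, Bowtie2 2.3.5, cutadapt 2.6, deepTools 3.5.0, SAMtools 1.10 and Picard, without the settings or control of a peak call. The deposited lists, called per library, hold per peak the summit offset, −log10 p and −log10 q values, fold enrichment as a ratio to background, and a score that equals the whole part of 10 times the −log10 q. RefSeq gene bounds on GRCm38.p6 (mm10) were used. Of the protein-coding entries, 108 placed before 3 Mb of an autosome or X carry scaffold coordinates and were left out, as were mitochondrial genes. Strands and starts came from the RefSeq promoter table, which held 62 of the 77 members. Peaks sharing at least 1 bp were joined. Alternatives covered the threshold, overlap, flank, library, knockout peaks and shared ends, and the split by promoter class was added after seeing the data. The members and lists were chosen with earlier results of these data known. Described in full were the 12 members of highest mean percentile rank, members with regions in the body only and members of the role lists, and the others are named, except for an item that is not reported here. The ring pattern search planned for proteins was not run. Depth is unknown, so no intervals are given. Python 3.11.15 with numpy 2.4.6, pandas 2.3.3 and matplotlib 3.10.9 was used, and simulated intervals served to test the joining of peaks.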

Additional observations from a re-analysis of the deposited data

How the results depend on the processing

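At a −log10 q of at least 5 a region lay at an end of 17 Rnf genes (2579 of all protein-coding genes), in the body or flank of 20 and at a start of 16. For a −log10 q of 10 or more these were 10 (1476), 12 and 9, with a median fold of 11.8 in place of 7.13. In the other ligase lists 22 genes then had a region in place of 58, beside 6.78% of all protein-coding genes in place of 21%. With genes of shared end windows left out, 46 Rnf genes were tested at an end or in the body, and 36 at a start. The counts were then 16 Rnf genes at an end (2579 of 14769 coding genes), 20 in the body or flank, 14 at a start and 37 in the other lists. The share of Rnf genes at an end was 34.8%, beside 33.8% with all genes. Among promoters that were not CpG-rich, an alternative chosen after seeing the data, 5 Rnf genes had a region at a start. With 1 wild-type library alone, 27 to 32 Rnf genes had a region at an end, 38 to 43 in the body or flank and 27 to 30 at a start. Regions at an end of 10 Rnf genes were present under each of 12 settings, leaving out only the one on shared windows: Rnf130, Rnf144a, Rnf149, Rnf165, Rnf168, Rnf169, Rnf170, Rnf187, Rnf2 and Rnf216. Asking more of each peak or testing fewer genes lowers such counts by construction. Other causes of these moves were not tested. No paired analysis was possible because the knockout has 1 library and no result comes from a test.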
